A study of Mus musculus with 8 samples.

Results

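Secreted factors that promote or restrain blood vessel growth were examined in mouse corneas with overexpression of TGF-beta and in corneas of wildtype littermates. The set holds 10 genes: the vascular endothelial growth factors Vegfa, Vegfb and Vegfc, placental growth factor Pgf, the angiopoietins Angpt1 and Angpt2, the vasoactive peptides adrenomedullin (Adm) and endothelin-1 (Edn1), pigment epithelium-derived factor (Serpinf1) and semaphorin 3C (Sema3c). Its members are the probe sets that the platform annotation assigns to 1 of these symbols and to no other gene, which gave 18 of the 45037 probe sets tested. The 8 arrays each hold total RNA of cornea, 4 with TGF-beta overexpression (TGFB 1 to TGFB 4) and 4 from wildtype littermates (wildtype 1 to wildtype 4). The labels name no TGF-beta isoform, promoter, strain or age, and do not say how many animals stand behind an array. The p-values cover the spread from array to array, whether biological or technical.

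The healthy, transparent cornea has no blood or lymph vessels, a state kept by a surplus of inhibitors over growth signals. VEGF family proteins bind receptors of endothelial cells, with Vegfa and Pgf acting on blood vessels and Vegfc best known for lymphatic vessels. Angiopoietins bind the receptor TIE2 and set how stable a vessel is, endothelin-1 constricts vessels and adrenomedullin widens them, and pigment epithelium-derived factor inhibits vessel growth in the eye. Hypoxia raises transcription of Vegfa and Adm through HIF factors, and TGF-beta is a known inducer of Edn1 in endothelial cells.

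The promoters of 3 members are shown because Adm and Edn1 were the members with higher signals in TGFB corneas at an unadjusted p under 0.05, and Sema3c had the smallest p-value among members with lower signals, as described further on. Each run is the 250 bases before the RefSeq start of the gene in build GRCm38.p6, read 5′ to 3′ on the strand of the gene. Capitals mark matches on either strand to the hypoxia response cores ACGTG and GCGTG, the SMAD box CAGAC, the AP-1 site TGACTCA and the TATA motif TATAAA.
Adm promoter, chr7:110627407-110627656 (plus strand): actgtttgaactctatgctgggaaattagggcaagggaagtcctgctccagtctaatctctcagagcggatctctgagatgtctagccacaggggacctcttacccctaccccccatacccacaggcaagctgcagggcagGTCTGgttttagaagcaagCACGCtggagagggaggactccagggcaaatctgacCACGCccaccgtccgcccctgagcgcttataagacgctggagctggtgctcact
Edn1 promoter, chr13:42301226-42301475 (plus strand): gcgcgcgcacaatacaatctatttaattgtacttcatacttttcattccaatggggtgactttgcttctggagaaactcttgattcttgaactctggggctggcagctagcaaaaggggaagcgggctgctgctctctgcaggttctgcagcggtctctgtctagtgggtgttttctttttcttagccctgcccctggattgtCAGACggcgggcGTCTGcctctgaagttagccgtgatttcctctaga
Sema3c promoter, chr5:17574566-17574815 (plus strand): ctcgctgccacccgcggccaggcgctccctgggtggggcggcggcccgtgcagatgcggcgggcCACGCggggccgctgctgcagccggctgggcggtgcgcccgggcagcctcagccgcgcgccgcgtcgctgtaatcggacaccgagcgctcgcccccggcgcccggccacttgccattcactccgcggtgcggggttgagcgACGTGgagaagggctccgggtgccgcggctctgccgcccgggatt
The Adm window held GCGTG 2 times and CAGAC 1 time, the Edn1 window CAGAC 2 times, and the Sema3c window ACGTG 1 time and GCGTG 1 time. Of all 32851 windows of this length, 16.6% held ACGTG, 28.2% GCGTG, 42.2% CAGAC, 4.46% TGACTCA and 12.4% TATAAA. The 10 windows listed for 8 of the 10 genes held ACGTG in 3 cases, GCGTG in 5, CAGAC in 6, and neither TGACTCA nor TATAAA. A match describes letters in these windows and shows no bound factor. Angpt1 and Angpt2 were not looked at in this way.

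The arrays differed in the keratin Krt10 of cornified skin. It had signals of 11198 on TGFB 1, 10154 on TGFB 2 and 8494 on wildtype 2, and between 139.8 and 409 on the other arrays. Whether this signal came from skin next to the cornea or from the cornea itself was not tested. The ratio of the 3' to the 5' control probe set of Gapdh, high where RNA is degraded, was 6.41 on wildtype 4 and between 2.19 and 4.31 elsewhere. Median signals ran from 26.3 to 34.4, and a probe set below the median of every array is called dim here. Corneal epithelial, keratocyte and corneal endothelial markers were above that level on at least 1 array for all 15 genes measured. The corneal keratin Krt12 had signals of 289 on TGFB 1 and 562 on wildtype 4, and between 3008 and 5766 on the other arrays. Tgfb1 gave log2 differences of 0.36 (SE 0.25) and -0.25 (SE 0.25) in its 2 probe sets, the 4 probe sets of Tgfb2 ran from -0.22 to -0.021 and Tgfb3 gave 0.10 (SE 0.31), so mouse Tgfb probe sets do not separate the groups. Such probe sets need not detect a transgene of another species.

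TGFB corneas had higher signals of the vasoactive peptides Adm and Edn1 and lower signals of Sema3c, Pgf and Angpt1 than wildtype corneas, at about a doubling or a halving of the mean signal, and none of these differences passed the test across all probe sets. Limma with Benjamini-Hochberg adjustment called 0 of the 18 member probe sets at adjusted p under 0.05, as it did 0 of all 45037 (0%), and the smallest adjusted p of any probe set was 0.822. Of the 18 member probe sets, 7 had an unadjusted p under 0.05, against 5.86% of all probe sets. Of these, 3 were higher (2.7% of all) and 4 lower (3.16% of all). Adm and Sema3c each account for 2 of the 7. The members were chosen with earlier results of these data known, so these shares describe the set and are not a test of it. The groups did not overlap for 3 member probe sets (3.28% of all probe sets), 1 higher (1.47% of all) and 2 lower (1.81% of all). Without TGFB 1, TGFB 2 and wildtype 2, the arrays with high Krt10, 6 member probe sets had an unadjusted p under 0.05 (4.63% of all probe sets). Pgf and Adm 1447839_x_at were then no longer among them, and Vegfc 1419417_at was. Without wildtype 1 and wildtype 4 there were 7 (8.21% of all). Here Edn1 and Angpt1 1439066_at were no longer among them, and Vegfa 1420909_at and Vegfb were. Over all 18 the median log2 difference was -0.088, against 0.0090 over all probe sets, with 8 above 0 and 10 below. With all 8 arrays, the 2 or 3 probe sets of 1 gene gave differences of the same sign in each of the 7 genes that have several. In Angpt1 and in Angpt2, 1 of the 2 probe sets was dim. Of the 18 member probe sets, 6 changed sign in some other setting or with arrays left out.

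**Figure D1:**
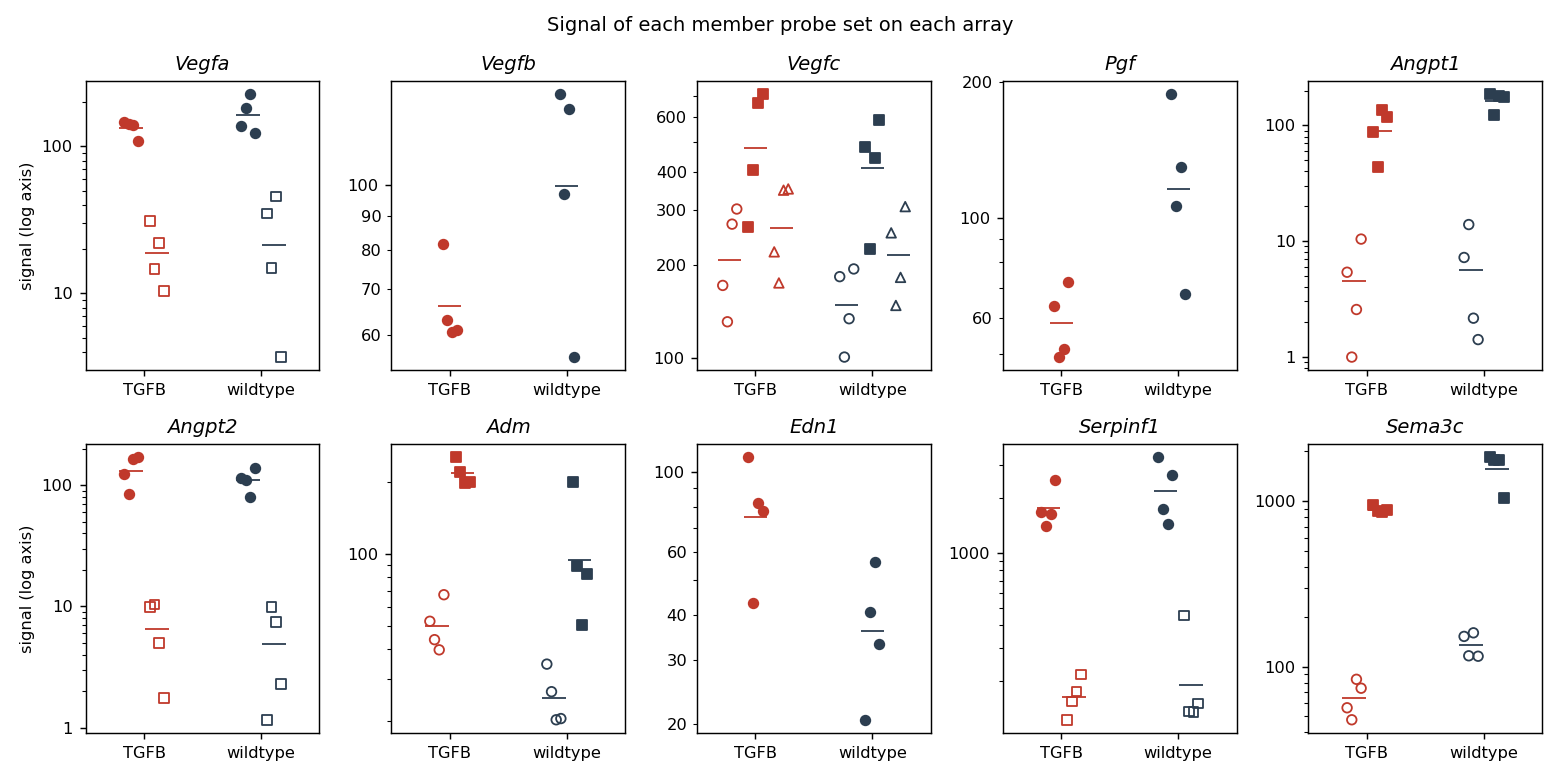
Signal of each member probe set on each array, on a log axis, with TGFB arrays in red at the left and wildtype arrays in dark blue at the right of each panel. Filled marks show the brightest probe set of a gene, open marks its other probe sets, and bars the group mean of log2(signal + 16) turned back to signal. Both Sema3c probe sets lie lower on all 4 TGFB arrays than on any wildtype array, and 1 Adm probe set lies higher on all 4.

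**Figure D2:**
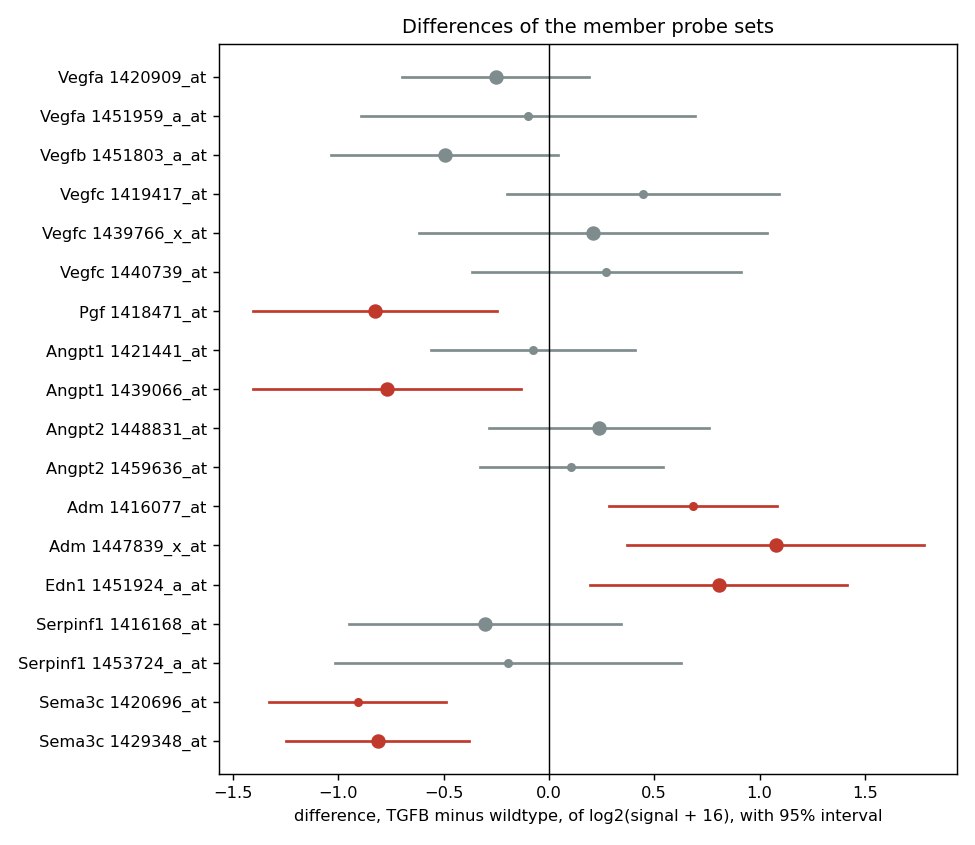
Difference between TGFB and wildtype arrays of log2(signal + 16) for the 18 member probe sets, with 95% intervals from limma, not adjusted for the number of probe sets. Large points are the brightest probe set of a gene, and red marks an unadjusted p under 0.05, which 7 probe sets reach. Intervals of Adm, Edn1, Pgf, Sema3c and the brighter Angpt1 probe set do not include 0.

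Vegfa, the main inducer of blood vessel growth, gave no clear difference. Its brighter probe set 1420909_at had signals of 147, 141, 140.2 and 109 on TGFB 1 to 4 and of 136, 181, 226 and 123 on wildtype 1 to 4. The groups overlapped, and the highest values were those of wildtype 2 and wildtype 3. On the scale of log2(signal + 16), used for all differences here, the TGFB mean was 7.23 ± 0.17 and the wildtype mean 7.48 ± 0.36 (SD, n = 4 each). The difference was -0.25 (95% interval -0.70 to 0.19, limma adjusted p = 0.916), and it was -0.11 without wildtype 3 and -0.55 without wildtype 1 and wildtype 4. A weaker probe set, 1451959_a_at, ran from 10.4 to 31.1 in TGFB and from 3.70 to 45.7 in wildtype arrays, and lay below the array median on 6 of 8 arrays. Whether these probe sets tell the splice forms of Vegfa apart was not examined.

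Vegfb, which acts on the receptor FLT1 and is best known from heart and muscle, had signals of 81.6, 63.1, 60.5 and 60.9 on the TGFB arrays and of 136, 97.0, 129.7 and 55.6 on the wildtype arrays. Wildtype 4 had the lowest value of all 8, and the other wildtype arrays lay above every TGFB array. The log2 difference was -0.50 (95% interval -1.04 to 0.045, limma adjusted p = 0.867). Without wildtype 4 it was -0.73.

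Pgf, a VEGF relative that binds FLT1 and is known from placenta and inflamed tissue, gave lower mean signals in TGFB corneas. They were 63.9, 49.2, 51.3 and 72.1 on the TGFB arrays and 188, 106, 129.9 and 67.7 on the wildtype arrays. The groups overlapped through wildtype 4, whose signal lay between those of TGFB 1 and TGFB 4. The mean signal in TGFB corneas was 0.481 times that in wildtype corneas, and the log2 difference was -0.82 (SE 0.26, limma adjusted p = 0.837). It was -1.04 without wildtype 4 and -0.62 without wildtype 1, the array with the highest value.

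Vegfc, a ligand of the lymphatic receptor FLT4, varied more within the groups than between them. Its brightest probe set, 1439766_x_at, had signals of 264, 405, 667 and 712 on the TGFB arrays and of 480.4, 224, 443.5 and 586 on the wildtype arrays. Probe set 1419417_at had signals of 171, 131, 270.5 and 303 against 183, 101, 134 and 194, and 1440739_at had 220.0, 175, 348 and 351 against 253, 148, 182 and 308. All 3 probe sets were highest on TGFB 3 and TGFB 4 and lowest on wildtype 2. The differences were 0.21, 0.45 and 0.27 (SE 0.37, 0.29 and 0.28), with limma adjusted p-values from 0.902 to 0.960. The suffix x marks a probe set whose probes can also match other sequences. Its difference was -0.069 without wildtype 2 and 0.48 without TGFB 1, and the other probe sets reached 0.65 and 0.45 without TGFB 2.

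Angpt1, the agonist of TIE2 that steadies vessels, was read by a bright and a dim probe set. The bright one, 1439066_at, had signals of 87.7, 43.9, 134.9 and 117 on the TGFB arrays and of 186, 122, 180.2 and 176 on the wildtype arrays. The groups overlapped only in that TGFB 3 lay above wildtype 2. The TGFB mean of log2 values was 6.72 ± 0.59 and the wildtype mean 7.49 ± 0.26 (SD, n = 4 each), a difference of -0.77 (95% interval -1.41 to -0.13, limma adjusted p = 0.837). TGFB 2 had the lowest value, and without it the difference was -0.50. Without TGFB 1, TGFB 2 and wildtype 2 it was -0.47. The dim probe set, 1421441_at, ran from 0.992 to 10.4 in TGFB and from 1.41 to 13.9 in wildtype arrays, where no difference could be measured.

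Angpt2, which counters Angpt1 at TIE2 and loosens vessels, had signals of 123, 84.7, 165 and 171 on the TGFB arrays and of 115, 109, 80.3 and 139.7 on the wildtype arrays in probe set 1448831_at. The groups overlapped, with TGFB 3 and TGFB 4 highest and wildtype 3 lowest. The difference was 0.24 (95% interval -0.29 to 0.76, limma adjusted p = 0.927), and it was 0.42 without TGFB 2 and 0.11 without wildtype 3. Without TGFB 1, TGFB 2 and wildtype 2 it was 0.55. The other Angpt2 probe set was dim, with signals up to 10.4 in TGFB and up to 9.87 in wildtype arrays.

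Adm, a vasodilator peptide that also supports vessel and lymph vessel growth, had a mean signal in TGFB corneas about 2 times that in wildtype corneas. Probe set 1416077_at had signals of 52.4, 43.9, 39.8 and 67.6 on the TGFB arrays and of 34.7, 26.6, 20.3 and 20.6 on the wildtype arrays. The groups did not overlap, although wildtype 2, 3 and 4 were below the median signal of their arrays. The mean signal ratio was 1.99 and the log2 difference 0.68 (SE 0.18, limma adjusted p = 0.822). Probe set 1447839_x_at carries the suffix x, so its probes can also match other sequences. It was brighter, with 254, 219.8, 197 and 200.3 on the TGFB arrays and 199.5, 89.1, 50.5 and 82.6 on the wildtype arrays. Here wildtype 1 lay among the TGFB arrays and the other wildtype arrays lay far below them. The mean signal ratio was 2.07 and the log2 difference 1.08 (95% interval 0.37 to 1.78, limma adjusted p = 0.834). The difference remained above 0 in all 19 other settings for the brighter probe set, from 0.83 without wildtype 3 to 1.48 without wildtype 1 and wildtype 4.

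Edn1, the precursor of the vasoconstrictor endothelin-1, had signals of 110.1, 43.4, 81.7 and 78.1 on the TGFB arrays and of 20.5, 40.7, 56.2 and 33.2 on the wildtype arrays. TGFB 2 lay among the wildtype arrays, while the other TGFB arrays lay above all of them. The mean signal ratio was 2.08, and the log2 means were 6.51 ± 0.45 in TGFB and 5.70 ± 0.41 in wildtype corneas (SD, n = 4 each). The difference was 0.81 (95% interval 0.20 to 1.42, limma adjusted p = 0.837). It was 1.01 without TGFB 2 and 0.51 without wildtype 1 and wildtype 4. The value of wildtype 1 lay below the median of that array.

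Serpinf1, the inhibitor made in the eye by pigment epithelium among other cells, was bright on every array. Probe set 1416168_at had signals of 1672, 1407, 1619 and 2488 on the TGFB arrays and of 3338, 1737, 1432 and 2650 on the wildtype arrays. The groups overlapped widely, and wildtype 1 was the highest array. The log2 difference was -0.30 (95% interval -0.95 to 0.34, limma adjusted p = 0.925), and it was -0.095 without wildtype 1. Probe set 1453724_a_at had 122, 154, 175 and 215 against 454, 136, 134 and 149.5, so that wildtype 1 stood alone. Its difference of -0.19 (SE 0.36, limma adjusted p = 0.961) became 0.20 without wildtype 1, and without wildtype 1 and wildtype 4 both probe sets had positive differences (0.15 and 0.25).

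Sema3c, a secreted guidance protein that acts through neuropilins and plexins on axons and endothelial cells, was lower on all TGFB arrays in both probe sets. Probe set 1429348_at had signals of 940.1, 870.2, 852 and 879.5 on the TGFB arrays and of 1847, 1778, 1762 and 1043 on the wildtype arrays. Its TGFB values were close to one another and below all wildtype values, of which wildtype 4 came nearest. The mean signal in TGFB corneas was 0.551 times that in wildtype corneas, and the log2 difference was -0.81 (SE 0.19, limma adjusted p = 0.822). Probe set 1420696_at had 56.4, 47.7, 83.7 and 74.0 against 152, 116, 159.9 and 115, a mean signal ratio of 0.482 and a log2 difference of -0.91 (SE 0.19, limma adjusted p = 0.822). Over the other settings the differences of the 2 probe sets ran from -1.01 to -0.74 and from -1.06 to -0.73. The smallest adjusted p of any member in any setting, 0.0793, was that of 1429348_at without wildtype 4.

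**Figure D3:**
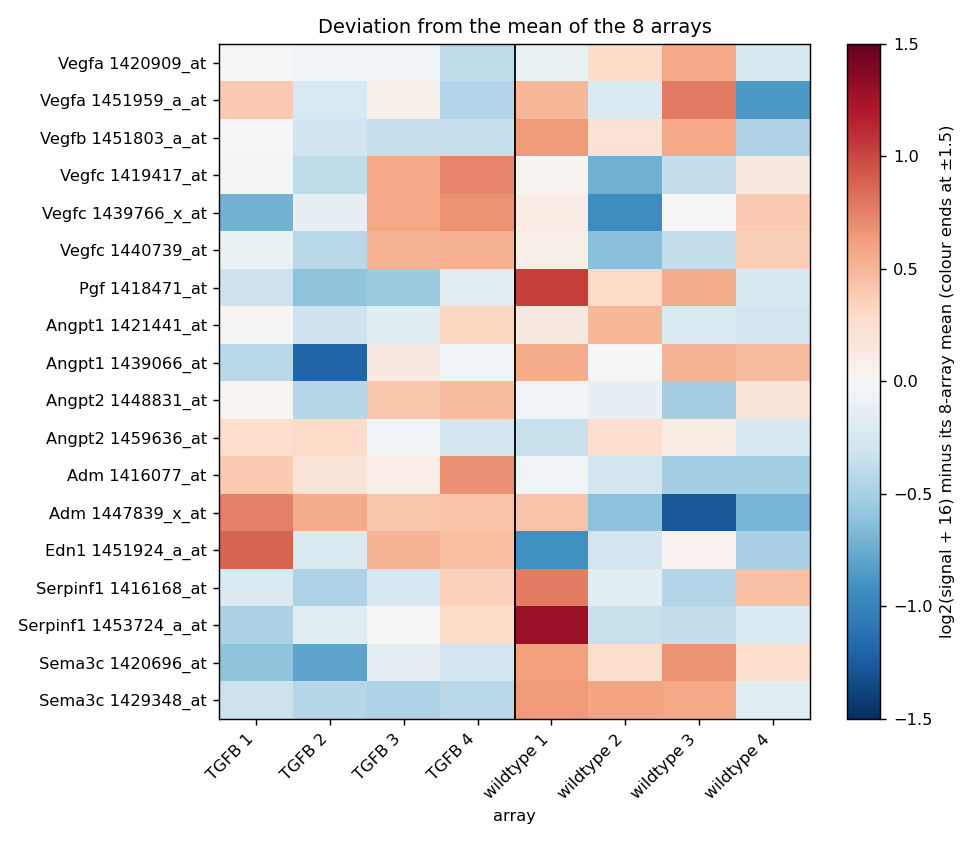
Deviation of each member probe set from its own mean over the 8 arrays, in log2(signal + 16), with TGFB arrays at the left of the line. Red is above and blue below that mean. The Sema3c rows are below 0 on all TGFB arrays, while the Vegfc rows are highest on TGFB 3 and TGFB 4.

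The likeness of other genes to the 3 members with the largest spread over the 8 arrays, Adm, Angpt1 and Edn1 (SD of 0.75, 0.59 and 0.59), was measured as the root mean square difference of log2 values centred on their 8-array mean. Each gene was read by its brightest probe set, which for Adm is 1447839_x_at. Nearest to Adm were the MHC class II gene H2-Ab1 (0.23), the splicing factor Srsf2 (0.30) and the transcription factor Bnc1 (0.32). The other Adm probe set was less like it than these, at 0.41. H2-Ab1 had signals of 21.4, 3.24 and 25.8 on wildtype 2, 3 and 4, below the medians of these arrays. Bnc1, found in basal keratinocytes, had signals of 184, 138, 183 and 176 on the TGFB arrays and of 132, 90.9, 70.7 and 56.1 on the wildtype arrays. For Angpt1 they were the actin-binding profilin Pfn2 (0.14), Iftap (0.15) and the extracellular protein Cthrc1 (0.17). Cthrc1 shared the low value on TGFB 2, with signals of 2612, 1697, 3525 and 3666 on the TGFB arrays and 4719, 3622, 4136 and 3863 on the wildtype arrays. For Edn1 they were a probe set assigned to Mir133b (0.15), the transcription factor Nfe2l3 (0.25) and Banf2 (0.25), and the probe sets of Mir133b and Banf2 had signals of at most 33.1.

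The other genes of these pathways were taken from 7 lists, with 1 probe set per gene, the brightest. Limma called 0 of them at adjusted p under 0.05, against 0 of all 18193 genes (0%). Of 15 receptors and co-receptors measured, 0 had an unadjusted p under 0.05 with a higher mean (2.69% of all genes) and 1 with a lower mean (4.54% of all genes). That was Plxdc1, a receptor for pigment epithelium-derived factor also known as a tumour endothelial marker, with signals of 70.3, 76.0, 39.4 and 59.1 on the TGFB arrays and of 97.4, 93.5, 99.5 and 83.6 on the wildtype arrays. Its groups did not overlap (2.45% of all genes were lower without overlap), and the difference was -0.53 (SE 0.18, limma adjusted p = 0.837). The VEGF receptor Kdr had a difference of -0.52 (SE 0.34) and the adrenomedullin receptor subunit Ramp3 one of -0.37 (SE 0.25). The median over the receptors was -0.089, against -0.014 over all genes.

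Among 11 relatives of the ligands, 0 were higher (2.69% of all genes) and 1 lower (4.54% of all genes) at an unadjusted p under 0.05. Endothelin-3 (Edn3), which acts on melanocyte precursors through EDNRB, had signals of 44.9, 28.7, 28.2 and 38.2 on the TGFB arrays and of 319, 108, 171 and 46.0 on the wildtype arrays. No TGFB array reached the lowest wildtype array, wildtype 4, and the difference was -1.55 (SE 0.44, limma adjusted p = 0.834), opposite in sign to that of Edn1. Sema3b had a difference of -0.53 (SE 0.27) and Edn2 one of 0.69 (SE 0.45). Of 7 processing enzymes, 0 had an unadjusted p under 0.05 in either direction, and the smallest p-values were those of the protease Furin (0.39, SE 0.21), the endothelin-converting enzyme Ece1 (0.21, SE 0.22) and the peptide-amidating enzyme Pam (0.32, SE 0.40).

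Hypoxia target genes had higher means in TGFB corneas for 11 of 15 measured. Of these 15 genes, 4 were higher and 0 lower at an unadjusted p under 0.05, against 2.69% and 4.54% of all genes. For 3 of them no arrays of the groups overlapped (1.49% of all genes were higher without overlap). The list median was 0.30, against -0.014 over all genes. Without TGFB 1, TGFB 2 and wildtype 2 the count was 2 higher and 0 lower, with a median of 0.35, and without wildtype 1 and wildtype 4 it was 4 higher and 0 lower. Pfkfb3, a regulator of glycolysis, had signals of 84.4, 71.7, 98.7 and 117 on the TGFB arrays and of 59.2, 33.1, 53.6 and 52.7 on the wildtype arrays, a difference of 0.73 (SE 0.19, limma adjusted p = 0.822). The hexokinase Hk2 had 614, 599, 344 and 311 against 267, 264, 224 and 131, a difference of 1.01 (SE 0.29, limma adjusted p = 0.834). In Hk2 the 2 arrays with the highest values, TGFB 1 and TGFB 2, were also those with the highest Krt10, and the part of cornified tissue in this difference was not tested. The kinase Pdk1 had a difference of 0.43 (SE 0.13, limma adjusted p = 0.837). The glucose transporter Slc2a1 was on the other side, at -0.66 (SE 0.40). Of the 8 oxygen sensors and HIF factors, 0 had an unadjusted p under 0.05, and the smallest p-values were those of Vhl (-0.23, SE 0.15), Egln2 (-0.13, SE 0.15) and Hif1an (0.13, SE 0.23).

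Of 12 other angiogenic factors, 0 were higher (2.69% of all genes) and 1 lower (4.54% of all genes) at an unadjusted p under 0.05. Midkine (Mdk), a heparin-binding growth factor, had signals of 1934, 1512, 2005 and 2309.5 on the TGFB arrays and of 4172, 2408, 3649 and 2610 on the wildtype arrays. The groups did not overlap (2.45% of all genes were lower without overlap), and the difference was -0.70 (SE 0.21, limma adjusted p = 0.834). The matricellular factor Ccn1 had a difference of 0.69 (SE 0.34) and Angptl4 one of 0.26 (SE 0.17). Among 8 other inhibitors, 0 were higher and 1 lower, against the same shares of all genes. Chondromodulin (Cnmd), a cartilage protein that blocks vessel growth, had a difference of -0.95 (SE 0.28, limma adjusted p = 0.834) with overlapping groups, the TGF-beta target thrombospondin Thbs1 had 0.78 (SE 0.39) and Col18a1, the source of endostatin, had 0.18 (SE 0.14).

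**Figure D4:**
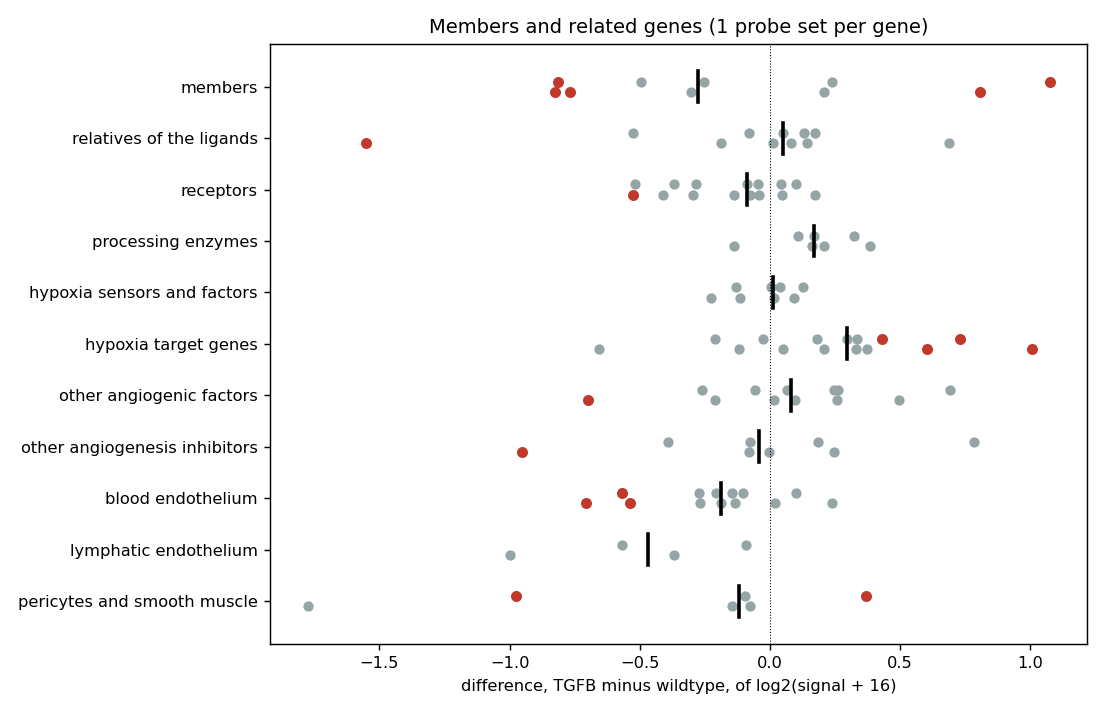
Difference between TGFB and wildtype arrays of log2(signal + 16) for the members and for related gene lists, 1 point per gene. Black bars are list medians and red points have an unadjusted p under 0.05. Hypoxia target genes have a median of 0.30, and blood endothelial markers one of -0.19 that is 0.0019 without wildtype 1 and wildtype 4.

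Markers of the cells that receive these signals were present in both groups. Of 13 blood endothelial markers, 0 were higher (2.69% of all genes) and 3 lower (4.54% of all genes) at an unadjusted p under 0.05. These 3 were the tight junction protein Cldn5 (-0.71, SE 0.22), the sialomucin Emcn (-0.54, SE 0.21) and the adhesion molecule Icam2 (-0.57, SE 0.24). The list median was -0.19. Without TGFB 1, TGFB 2 and wildtype 2 the count of lower markers was 0, and without wildtype 1 and wildtype 4 it was 4, with a list median of 0.0019. Cldn5 signals were 217, 219, 269.6 and 257 on the TGFB arrays and 525, 335, 521 and 281 on the wildtype arrays, without overlap (2.45% of all genes were lower without overlap). Summed signals of the list ran from 2257 to 2710 in TGFB and from 2422 to 4010 in wildtype arrays. Pecam1 had a difference of 0.020 (SE 0.15) and VE-cadherin (Cdh5) one of -0.27 (SE 0.28). In whole tissue, fewer cells of a type and less RNA per cell cannot be told apart.

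Markers of other eye tissues also had lower values in TGFB corneas. The mean log2 value of 7 pigment cell genes was 7.76, 8.71, 9.42 and 9.26 on the TGFB arrays and 11.74, 10.09, 11.05 and 9.38 on the wildtype arrays. All 7 had lower means in TGFB corneas. Of these, 5 had an unadjusted p under 0.05 (1 without TGFB 1, TGFB 2 and wildtype 2), against 4.54% of all genes. Their summed signals ran from 3142 to 14637 in TGFB and from 14318 to 31004 in wildtype arrays. For 5 retinal pigment epithelium genes the list mean was 5.65, 5.94, 6.92 and 6.76 against 9.35, 7.30, 7.73 and 7.00, with summed signals from 459 to 4966 in TGFB and from 3616 to 10725 in wildtype arrays. In this list Rpe65 had signals of 6.28, 1.82, 1.73 and 0.569 on the TGFB arrays and of 250.2, 2.90, 1.91 and 2.00 on the wildtype arrays, so that wildtype 1 alone stood apart. Wildtype 1, the highest array in both lists, was also the highest in Vegfb, Pgf, Edn3, Angpt1 1439066_at, Sema3c 1429348_at and both Serpinf1 probe sets. Wildtype 4, the lowest wildtype array in both lists, was the lowest wildtype array in Vegfa 1420909_at, Vegfb, Pgf, Edn3 and both Sema3c probe sets. Wildtype 4 was also the array with the highest Gapdh 3'/5' ratio, 6.41. Within the TGFB group, Sema3c 1429348_at stayed between 852 and 940.1 while the pigment mean ran from 7.76 to 9.42. Sema3c 1420696_at, at 56.4, 47.7, 83.7 and 74.0, was highest on TGFB 3 and TGFB 4, as the pigment mean was. Markers of the cornea's own cells differed as well. All 5 keratocyte genes had lower means in TGFB corneas, with a list median of -0.56. Of these, 2 had an unadjusted p under 0.05 (0 without TGFB 1, TGFB 2 and wildtype 2), against 4.54% of all genes. Of 7 corneal epithelial genes, 1 was higher (Krt14, 1.10, SE 0.29) and 1 lower (Tkt, -0.93, SE 0.26) at an unadjusted p under 0.05. The shares of all genes were 2.69% and 4.54%. The part of these tissues and cells, or of RNA quality, in the members' differences was not tested.

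The lists of 7 cornified epidermis genes and of 6 lens genes split the arrays in another way. Mean log2 values of cornified genes were 12.22, 12.59, 6.48 and 6.69 on the TGFB arrays and 6.24, 11.45, 7.20 and 6.45 on the wildtype arrays. Those of lens genes were 4.59, 4.78, 8.59 and 10.46 against 9.60, 5.07, 11.07 and 6.82. TGFB 1, TGFB 2 and wildtype 2, high in cornified and low in lens genes, included the 2 lowest arrays of each Vegfc probe set. They also included the 2 lowest arrays of Angpt1 1439066_at, TGFB 2 and TGFB 1. The part of these tissues in Vegfc and Angpt1 was not tested. Without these 3 arrays the difference of Angpt1 1439066_at was -0.47, against -0.77 on all arrays. The differences were then 0.94 for Adm 1447839_x_at, 0.75 for Adm 1416077_at, 0.92 for Edn1 and -0.82 for Pgf. They were -0.78 for Sema3c 1429348_at and -0.73 for Sema3c 1420696_at.

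**Figure D5:**
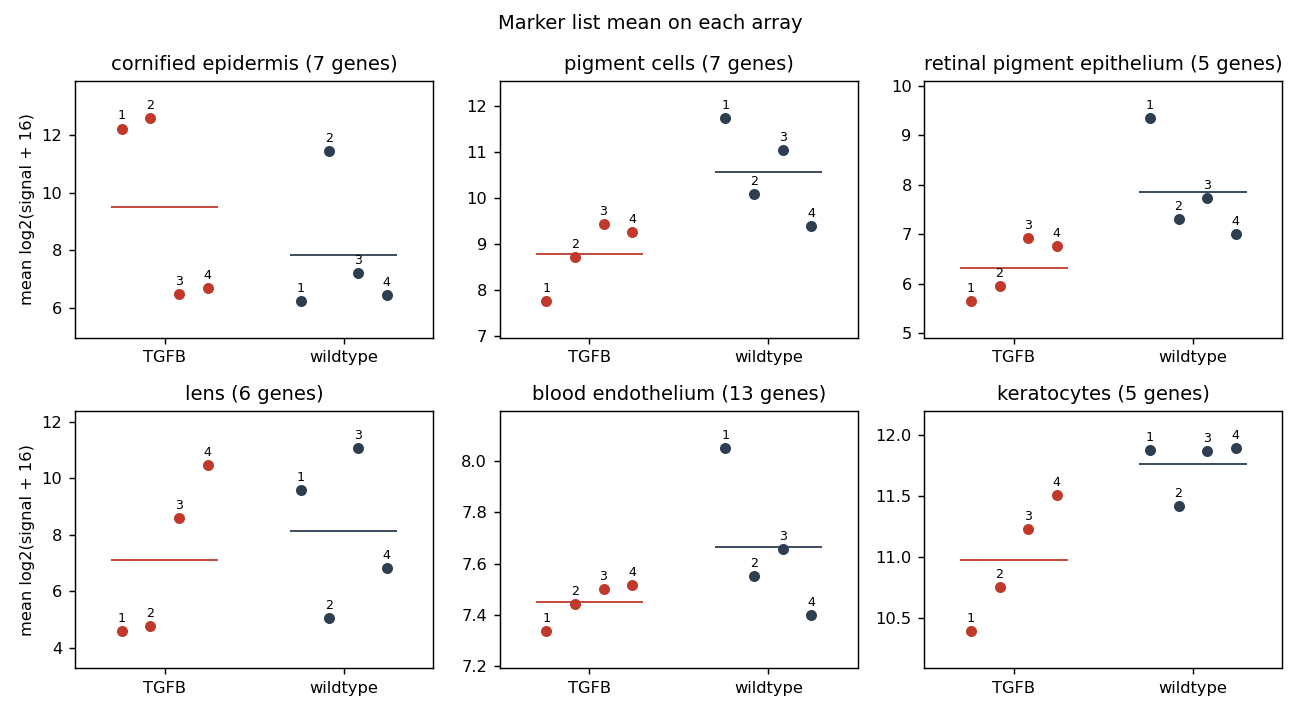
Mean log2(signal + 16) of 6 marker lists on each array, with TGFB at the left and wildtype at the right of each panel. Points carry the array number and lines are group means. Pigment cell means run from 7.76 to 9.42 in TGFB and from 9.38 to 11.74 in wildtype arrays.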

How the data were processed

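Mouse cornea RNA was measured on 8 one-colour arrays with 45101 probe sets. Signals are linear intensities as deposited by the authors. Which tool made them is not given in the sources used here. They show a mean of 150 on every array after trimming 2% at each end, so no further scaling was applied. No 2 arrays were identical. The 64 control probe sets were left out, and signals were taken as log2(signal + 16), which understates changes of dim genes. The number of arrays limits the precision.

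A platform annotation of 2016 gave 1 symbol to 34945 probe sets and several to 932. Entrez IDs linked 34741 of the single-symbol probe sets to RefSeq (GRCm38.p6). Groups follow the sample descriptions, with arrays numbered in record order, which pairs none. All 45037 probe sets were fitted in R 4.3.3 with limma 3.58.1 (eBayes without a trend, 9.22 degrees of freedom in total), and p-values were adjusted by Benjamini-Hochberg over all of them. The fit was tested on 5 simulated data sets with 200 changed probe sets each and noise drawn independently for each probe set. It recovered 29.8% of 2-fold and 76.8% of 4-fold changes at adjusted p under 0.05. Of its calls, 6.33% were of unchanged probe sets. Figures used matplotlib 3.10.9.

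Members, lists and tests were chosen with earlier results of these data known. All member probe sets are named, with the 3 genes of smallest p in each related list, the 3 genes most like each of the 3 most variable members, and marker lists by counts and a few defining genes. Further genes (Pecam1, Cdh5, Emcn, Icam2, Cldn5, Slc2a1, Rpe65, Krt14, Tkt, Adgre1, Cspg4 and Rgs5) were chosen after their values were seen. List genes without a probe set of their own were not analysed here. Alternatives were leaving out the dimmest 40% of probe sets, quantile normalization, an offset of 1 or 32, 1 probe set per gene, centring on the median, a variance trend, robust eBayes, array weights, an adjusted p under 0.01 and leaving out each array. Leaving out TGFB 1, TGFB 2 and wildtype 2, or wildtype 1 and wildtype 4, was added after seeing the data.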

Additional observations from a re-analysis of the deposited data

Results flagged for a closer look

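In 36 groups of 4 arrays (18 member probe sets in each group), 5 single arrays stood apart from the others of their group, by a gap past Dixon's 95% critical value on the log2 scale. Chance gives about 1 in 20 groups. Vegfa 1420909_at was 109 on TGFB 4, against 140.2 to 147 on the other TGFB arrays. Vegfb was 81.6 on TGFB 1, against 60.5 to 63.1. Angpt1 1439066_at was 122 on wildtype 2, against 176 to 186 on the other wildtype arrays. Serpinf1 1453724_a_at was 454 on wildtype 1, against 134 to 149.5, the array with the highest pigment cell and retinal pigment epithelium markers. Sema3c 1429348_at was 1043 on wildtype 4, the array with the highest Gapdh 3'/5' ratio, against 1762 to 1847.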

How the results depend on the processing

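Over 19 other settings, 318 of 332 values of the member probe sets kept their direction and their side of the threshold, and 12 of the 18 probe sets never changed sign. No member passed an adjusted p under 0.05 in any setting run, and neither did a gene of the related lists. Without 1 wildtype array, wildtype 4, limma called 2 of all probe sets, and it also called 2 without wildtype 1 and wildtype 4, against 0 otherwise (0 to 2 over single arrays left out). The count of member probe sets at an unadjusted p under 0.05 ran from 6 to 8 over 18 settings, in which the share over all probe sets ran from 4.50% without TGFB 1 to 11.7% without wildtype 4. With 1 probe set per gene it was 5 of 10, against 7.08% of all genes.

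The sign changes were in small differences, and their cause was not tested. Vegfa 1451959_a_at was 0.019 with an offset of 1, and -0.41 to 0.14 over single arrays left out. Angpt2 1459636_at was -0.023 with array weights, -0.0096 without TGFB 1, TGFB 2 and wildtype 2, and -0.13 without wildtype 1 and wildtype 4. Angpt1 1421441_at was 0.19 without TGFB 1, TGFB 2 and wildtype 2, and -0.20 to 0.080 over single arrays left out. Vegfc 1439766_x_at ran from -0.069 to 0.48 over single arrays left out and Serpinf1 1453724_a_at from -0.34 to 0.20. Without wildtype 1 and wildtype 4, Serpinf1 1416168_at was 0.15 and Serpinf1 1453724_a_at 0.25. No paired analysis was possible because the labels give no numbers shared between the groups.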

Other observations

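Pericytes and macrophages, which respond to or make several of these factors, were also followed. Of 6 pericyte and smooth muscle genes, 1 was higher (2.69% of all genes) and 1 lower (4.54% of all genes) at an unadjusted p under 0.05. The higher gene was the proteoglycan Cspg4, with signals of 238, 254, 247 and 189 on the TGFB arrays and of 173, 176, 179.5 and 172 on the wildtype arrays. The lower gene was the pericyte regulator Rgs5 (log2 difference of -0.98, SE 0.42). The count of higher genes in this list was 0 without TGFB 1, TGFB 2 and wildtype 2, and also without wildtype 1 and wildtype 4, and the count of lower genes was 1 in both. Of 5 macrophage genes, 0 were higher (2.69% of all genes) and 1 was lower (4.54% of all genes). That was the surface receptor Adgre1 (-0.90, SE 0.25), whose groups did not overlap (2.45% of all genes were lower without overlap). The lymphatic receptor Lyve1 had a difference of -0.37 (SE 0.57) and the lymphatic regulator Prox1 was dim on all arrays. None of these passed limma over all probe sets, where the smallest adjusted p was 0.822.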
